A study of Mus musculus with 3 samples.

Results

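The 58 genes described here encode amino acid transporters of 6 solute carrier families. They were taken by symbol, as every gene of the count tables named Slc1a, Slc3a, Slc6a, Slc7a, Slc36a or Slc38a followed by a number, from 32285 genes in all. By role there were 2 heavy chains of the heteromeric carriers (Slc3a), 10 light chains and 5 cationic carriers (Slc7a), 5 glutamate carriers and 2 neutral exchangers (Slc1a), 11 Slc38a, 19 Slc6a and 4 Slc36a genes. Not every member carries amino acids, since Slc6a8 transports creatine and several Slc6a members transport neurotransmitters. RNA of single cells was counted in 3 droplet libraries, 1 each for the embryo at embryonic day 7.0 (E7.0), the embryo at E7.25 and the posterior region at E7.5. All animals were normal, of the strain the labels give as genotype ARC, and the number of embryos per library is not given. With 1 library per group no test between stages was possible, and stage, library and, at E7.5, dissected region cannot be told apart.

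Mammalian cells take up most amino acids through such carriers. A heteromeric carrier joins a glycosylated heavy chain, which brings the complex to the cell surface, with a light chain, which holds the transport pore. Exchangers of this kind trade an amino acid inside the cell for one outside, sodium-coupled carriers of the Slc38a family load cells with glutamine, alanine and other small neutral amino acids, and some members of that family sit in the lysosome. Before the placenta works, the visceral endoderm, the outer layer of the early mouse conceptus, takes up and digests maternal protein and passes nutrients to the epiblast.

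Each library was split by 1 marker gene per lineage, none of them a transporter. Cells were kept where at least 1000 genes were detected and mitochondrial UMIs (unique molecular identifiers, each counting 1 RNA molecule) did not pass 10%. A kept cell entered the first gate it met. The gates were Ttr at 10 or more UMIs per 10000 (visceral endoderm), then Elf5 (extraembryonic ectoderm), Sox17 (endoderm), Hand1 (extraembryonic and lateral mesoderm), Mesp1 (nascent mesoderm) and Utf1 (epiblast), each at 2 or more UMIs. Values run from E7.0 over E7.25 to E7.5 posterior throughout. Of 7941, 5194 and 8438 kept cells, the Utf1 gate held 1987, 908 and 1506, the Mesp1 gate 2848, 960 and 2249, the Hand1 gate 431, 715 and 769, the Sox17 gate 538, 96 and 219, and the Ttr gate 826, 922 and 446. The Elf5 gate held 85 and 238 cells at E7.0 and E7.25 and 11 at E7.5 posterior, where it was not described because it had under 50 cells. Between 15.4% and 38.4% of kept cells met no gate, and 12.9%, 15.3% and 8.56% met more than 1. The overlap was largest for the Elf5 gate, where 2, 21 and 1 cells met no other gate. In the Hand1 gate 50, 360 and 274 cells met no other, so many cells of these 2 gates were placed by the order of the gates. Just inside the gates, 468, 386 and 532 cells had exactly 2 Utf1 UMIs, and just outside 988, 592 and 1077 had 1.

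The gates were compared with markers of their lineages. Each list includes the gene that set its gate, which the gating itself favours and which is no independent evidence. All 10 visceral endoderm markers were highest in the Ttr gate of each library, as were 7 of 8 extraembryonic ectoderm markers in the Elf5 gate and 6 of 7 endoderm markers in the Sox17 gate. Of the mesoderm markers, 5, 6 and 6 of 7 were highest in the Mesp1 gate and 5, 8 and 8 of 8 in the Hand1 gate. Of the epiblast markers, 3, 7 and 7 of 8 were highest in the Utf1 gate, and at E7.0 the Elf5 gate was highest for more of them, 4 of 8. Their summed level, Utf1 included, was highest in the Utf1 gate of each library, at 3731, 3451 and 3439 CPM, against at most 1734 CPM elsewhere. The Hand1 gate also held Mesp1, at 965, 397 and 490 CPM (the counts-per-million unit, over all UMIs of the gate). It held the endothelial genes Etv2 and Kdr at 109 and 107 CPM at E7.0, and a list of maternal blood genes at a summed 64.6 CPM at E7.25, with Hbb-bs at 35.1 CPM and the leukocyte genes Ptprc, Lyz2 and C1qa at 0. A list of 6 trophoblast markers summed to 298, 562 and 429 CPM in the Hand1 gate and to 333 and 504 CPM in the Elf5 gate, against 4.07 to 46.6 CPM elsewhere. Hand1, itself on that list, gave 289, 516 and 414 CPM of the sum in its gate and Ascl2 1.69, 5.80 and 3.87 CPM. The defining markers Tpbpa and Prl2c2 stood at 0 to 0.132 CPM there and Prl3d1 at 0, 3.69 and 0 CPM. A list of 6 parietal endoderm markers was highest in the Ttr gate, at a summed 533, 715 and 446 CPM, with 4, 4 and 3 of the 6 highest there. Sparc gave 384, 593 and 331 CPM of it, Thbd stood at 0 to 0.124 CPM and Pthlh at 0. Of 4 node and notochord markers, 2, 3 and 4 were highest in the Sox17 gate, at a summed 21.5, 15.8 and 27.4 CPM. At E7.0 their sum was higher in the Utf1 gate, at 26.1 CPM. The part of node, trophoblast or parietal endoderm cells in the results was not tested. The median kept cell had 11295, 8298 and 9254.5 UMIs. The median mitochondrial share was 2.26%, 2.39% and 3.44%, and in the Ttr gate 4.18%, 5.23% and 6.74%. The libraries shared 8, 22 and 14 barcodes pairwise.

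Of the 58 members, 17 reached 20 CPM in a library or a described gate and are named with values. Another 39 had at least 1 UMI below that level, 34 of them under 5 CPM in each library and described gate, and Slc7a12 and Slc7a15 had none. Summed over the 58 members, the Ttr gate held 1000.4, 1113 and 1114 CPM, and the other described gates 515 to 736 CPM. Light chains made up 43.9%, 37.3% and 42.1% of that sum in the Ttr gate and 7.44% to 18.0% elsewhere, while the Slc38a genes made up 24.5%, 32.2% and 26.6% in the Ttr gate and 43.6% to 54.1% elsewhere. A CPM is a share of a gate's RNA, so less of 1 transporter and more of other RNA cannot be told apart.

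**Figure D1:**
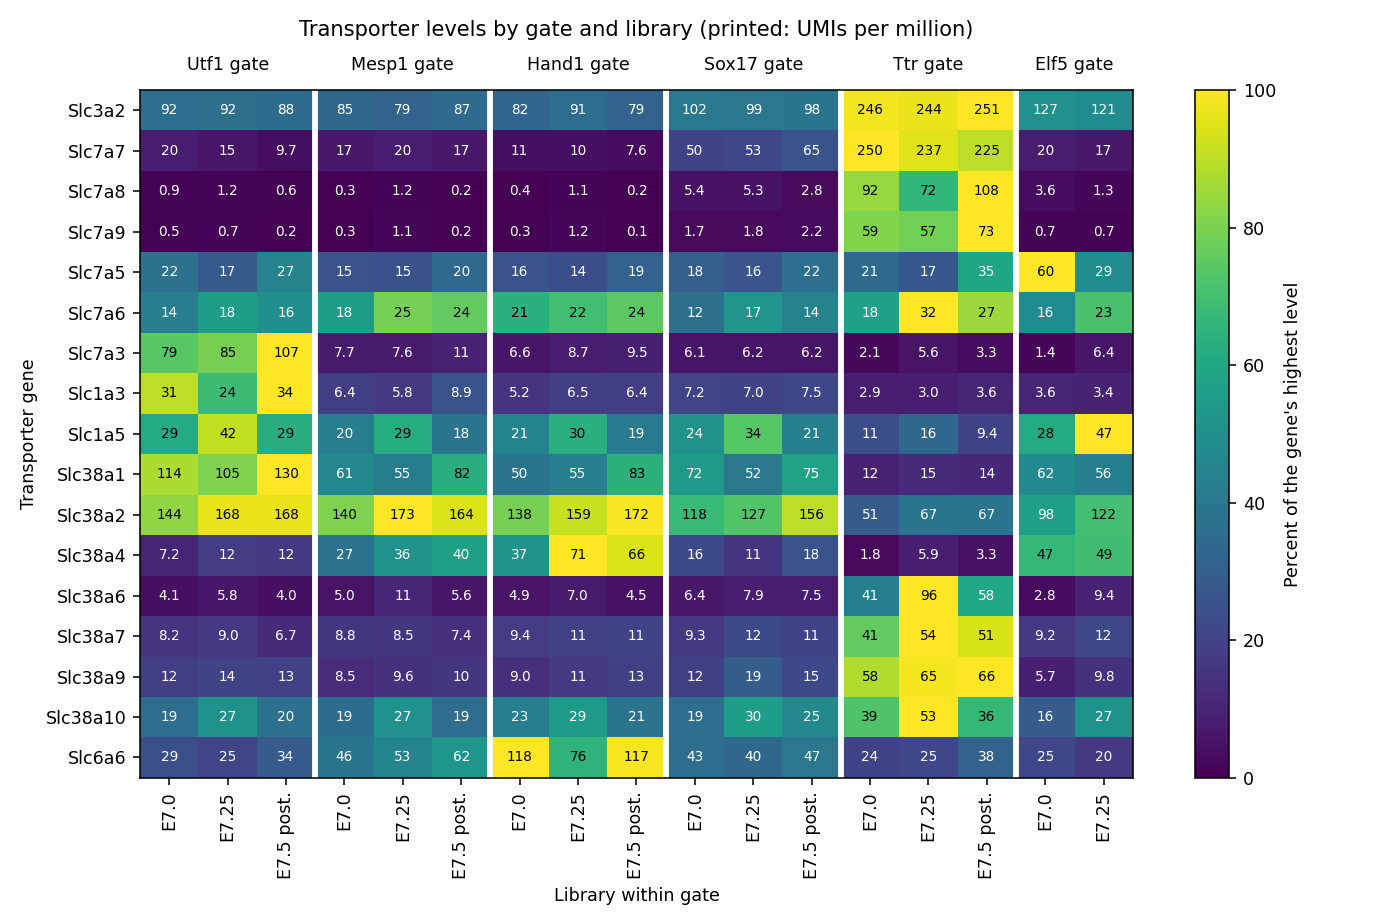
Level of the 17 named transporters (rows, printed in CPM) in each gate and library (columns), coloured by percent of each gene's highest level. Slc3a2, Slc7a7, Slc7a8, Slc7a9, Slc38a6, Slc38a7, Slc38a9 and Slc38a10 are highest in the Ttr gate of each library, and Slc7a3, Slc1a3 and Slc38a1 in the Utf1 gate.

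A member was called as led by a gate when it had 20 CPM or more there and at least 2-fold the mean of the other gates in each library where the gate was described. The Ttr gate led 7 of the 17, Slc3a2, Slc7a7, Slc7a8, Slc7a9, Slc38a6, Slc38a7 and Slc38a9, which is 41.2% of those measured, against 9.71% of the 7329 genes measured the same way. The Utf1 gate led 3, Slc7a3, Slc1a3 and Slc38a1 (17.6%, against 1.06% of all genes), and the Hand1 gate led Slc6a6 (5.88%, against 0.764%). The Mesp1 gate, the Sox17 gate and the Elf5 gate led 0 of 17, against 0.941%, 0.764% and 3.81% of all genes. Among the gates, Slc7a8, Slc7a9, Slc38a6, Slc38a7 and Slc38a9 reached 20 CPM only in Ttr, and Slc7a3 and Slc1a3 only in Utf1. These members entered the 17 through the gate that led them, as genes of the background can. The shares therefore describe the members and are not a test. Against the highest other gate in place of the mean, 6 of the Ttr calls and 2 of the Utf1 calls stayed, without Slc3a2 and Slc38a1, and the Hand1 call was lost. With 17 members measured, 1 gene moves a share by 5.88 percentage points, so the zeros for the Mesp1 and Sox17 gates lie near the background.

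Slc3a2, the heavy chain that most light chains need, was present in each gate and highest in the Ttr gate. It stood at 246, 244 and 251 CPM in the Ttr gate, 102, 99.3 and 98.0 CPM in the Sox17 gate, 92.0, 92.2 and 88.3 CPM in the Utf1 gate, 84.5, 79.4 and 87.3 CPM in the Mesp1 gate and 81.8, 90.9 and 78.5 CPM in the Hand1 gate. The Elf5 gate was second at 127 and 121 CPM, and the ratio of the Ttr to the Elf5 gate was 1.94 (95% interval 1.67 to 2.28) at E7.0 and 2.01 (95% interval 1.79 to 2.25) at E7.25. After each cell was thinned to 5000 UMIs, 67.4%, 69.5% and 71.0% of Ttr gate cells held a UMI of Slc3a2, against 31.0% to 44.3% in the other gates (unthinned, 82.4%, 80.4% and 80.9% in the Ttr gate). Thinning left out 129, 145 and 98 shallower cells of the 826, 922 and 446 in the Ttr gate. The most in another gate was 131 of 2249, in Mesp1 at E7.5 posterior. The Ttr gate thus lost the largest share of its cells in each library. Intervals throughout are exact 95% intervals, Poisson for a level and conditional binomial for a ratio, and cover counting error, not the spread between embryos. Slc3a1, the other heavy chain, had 16 UMIs over all kept cells and at most 0.141 CPM in any library or described gate.

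Slc7a7, the light chain that exports cationic amino acids at the basolateral side of kidney and gut epithelia, was highest in the Ttr gate at 249.5, 237 and 225 CPM. The Sox17 gate came second at 50.3, 52.7 and 65.0 CPM, and the ratio of the gates was 4.96 (95% interval 4.47 to 5.52) at E7.0, 4.50 (95% interval 3.48 to 5.92) at E7.25 and 3.46 (95% interval 2.97 to 4.04) at E7.5 posterior. The Utf1 gate held 20.1, 15.1 and 9.67 CPM, the Mesp1 gate 16.6, 20.2 and 17.2 CPM, the Hand1 gate 10.7, 10.2 and 7.62 CPM and the Elf5 gate 19.9 and 17.2 CPM. The Sox17 gate exceeded the Mesp1 gate 3.03, 2.62 and 3.79-fold, so both endoderm gates stood above the others. In thinned cells a UMI of Slc7a7 was found in 70.3%, 66.5% and 62.6% of the Ttr gate, 14.8%, 19.6% and 25.4% of the Sox17 gate and 3.38% to 8.50% of the rest. Unthinned, these were 84.3%, 82.1% and 72.0% in the Ttr gate and 35.1%, 38.5% and 47.9% in the Sox17 gate. Oxa1l overlaps Slc7a7 on the opposite strand, and whether the counting used strand is not given in the sources used here.

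Slc7a8, a basolateral exchanger of neutral amino acids, stood at 91.6, 71.6 and 108 CPM in the Ttr gate and at 5.40, 5.27 and 2.80 CPM in the Sox17 gate. It was at 0.163 to 1.22 CPM in the Utf1, Mesp1 and Hand1 gates and at 3.56 and 1.35 CPM in the Elf5 gate. The ratio of the Ttr to the Sox17 gate was 17.0 (95% interval 12.5 to 23.5) at E7.0, 13.6 (95% interval 6.20 to 37.2) at E7.25 and 38.7 (95% interval 20.2 to 85.1) at E7.5 posterior. Slc7a9, the cystine and cationic amino acid exchanger known from the apical side of kidney tubules, stood at 59.1, 57.3 and 72.8 CPM in the Ttr gate and at 1.72, 1.76 and 2.18 CPM in the Sox17 gate. Its ratio of the Ttr to the Sox17 gate was 34.4 (95% interval 20.3 to 63.3) at E7.0, 32.6 (95% interval 8.97 to 270.0) at E7.25 and 33.5 (95% interval 16.03 to 84.0) at E7.5 posterior. Slc7a9 is known to work with the Slc3a1 heavy chain, which was close to 0 in the same cells. In thinned Ttr gate cells a UMI was found in 37.6%, 33.6% and 38.8% for Slc7a8 and 25.97%, 23.4% and 29.6% for Slc7a9, so most of these cells showed no UMI of a given one at that depth. Unthinned, the shares were 53.9%, 43.7% and 52.0% and 43.6%, 37.5% and 42.6%.

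Abundant visceral endoderm transcripts read outside the Ttr gate, which free RNA in the droplets can give, served as a yardstick for such low values. The summed level of Apoa1, Apob, Afp, Rbp4, Apoa4 and Apoc2, which make apolipoproteins and other secreted proteins, was 0.202% to 1.53% of its Ttr gate level in the Utf1, Mesp1, Hand1 and Elf5 gates and 3.33%, 3.63% and 3.20% in the Sox17 gate. Slc7a9 stood at 0.152% to 3.07% of its Ttr gate level over the same 14 gates of the 3 libraries, and its interval was above the yardstick in 0 of 14. These values of Slc7a9 outside the Ttr gate are at the level of that yardstick. The yardstick was higher in the Sox17 gate than in the other gates of each library. Whether cells of the Sox17 gate make these transcripts themselves was not tested. Slc7a8 was above the yardstick in 3 of 14 gates, all at E7.0, at 5.90% in the Sox17 gate, 3.88% in the Elf5 gate and 1.012% in the Utf1 gate. Slc7a7 was above it in 14 of 14, at 3.39% to 28.9%, and so were Slc3a2, Slc38a6, Slc38a7 and Slc38a9. An alternative chosen after the data were examined subtracted the yardstick share. The 3, 1 and 7 members led by the Utf1, Hand1 and Ttr gates stayed at those counts.

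Slc7a5, the main carrier of leucine and other large neutral amino acids in growing cells, did not follow the endoderm pattern at E7.0 and E7.25. It was highest in the Elf5 gate, with 59.8 CPM (95% interval 47.7 to 74.0) in the E7.0 library and 29.0 CPM (95% interval 23.2 to 35.8) in the E7.25 library, which is 2.66 (95% interval 2.10 to 3.35) and 1.71 (95% interval 1.29 to 2.25) times the Utf1 gate. The Utf1 gate stood at 22.4, 17.0 and 26.8 CPM and the Ttr gate at 20.5, 16.6 and 35.4 CPM. At E7.5 posterior, where the Elf5 gate was not described, the Ttr gate was highest, 1.32 (95% interval 1.09 to 1.60) times the Utf1 gate. Over the Mesp1, Hand1 and Sox17 gates Slc7a5 ranged from 14.4 to 21.8 CPM. Slc7a6, a close relative of Slc7a7, varied less and ranged from 11.9 to 32.1 CPM over the described gates. Its highest gate at E7.0 was Hand1, 1.12 (95% interval 0.898 to 1.40) times the Ttr gate. At E7.25 and E7.5 posterior it was Ttr, 1.27 (95% interval 1.06 to 1.52) and 1.12 (95% interval 0.902 to 1.38) times the Mesp1 gate.

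**Figure D2:**
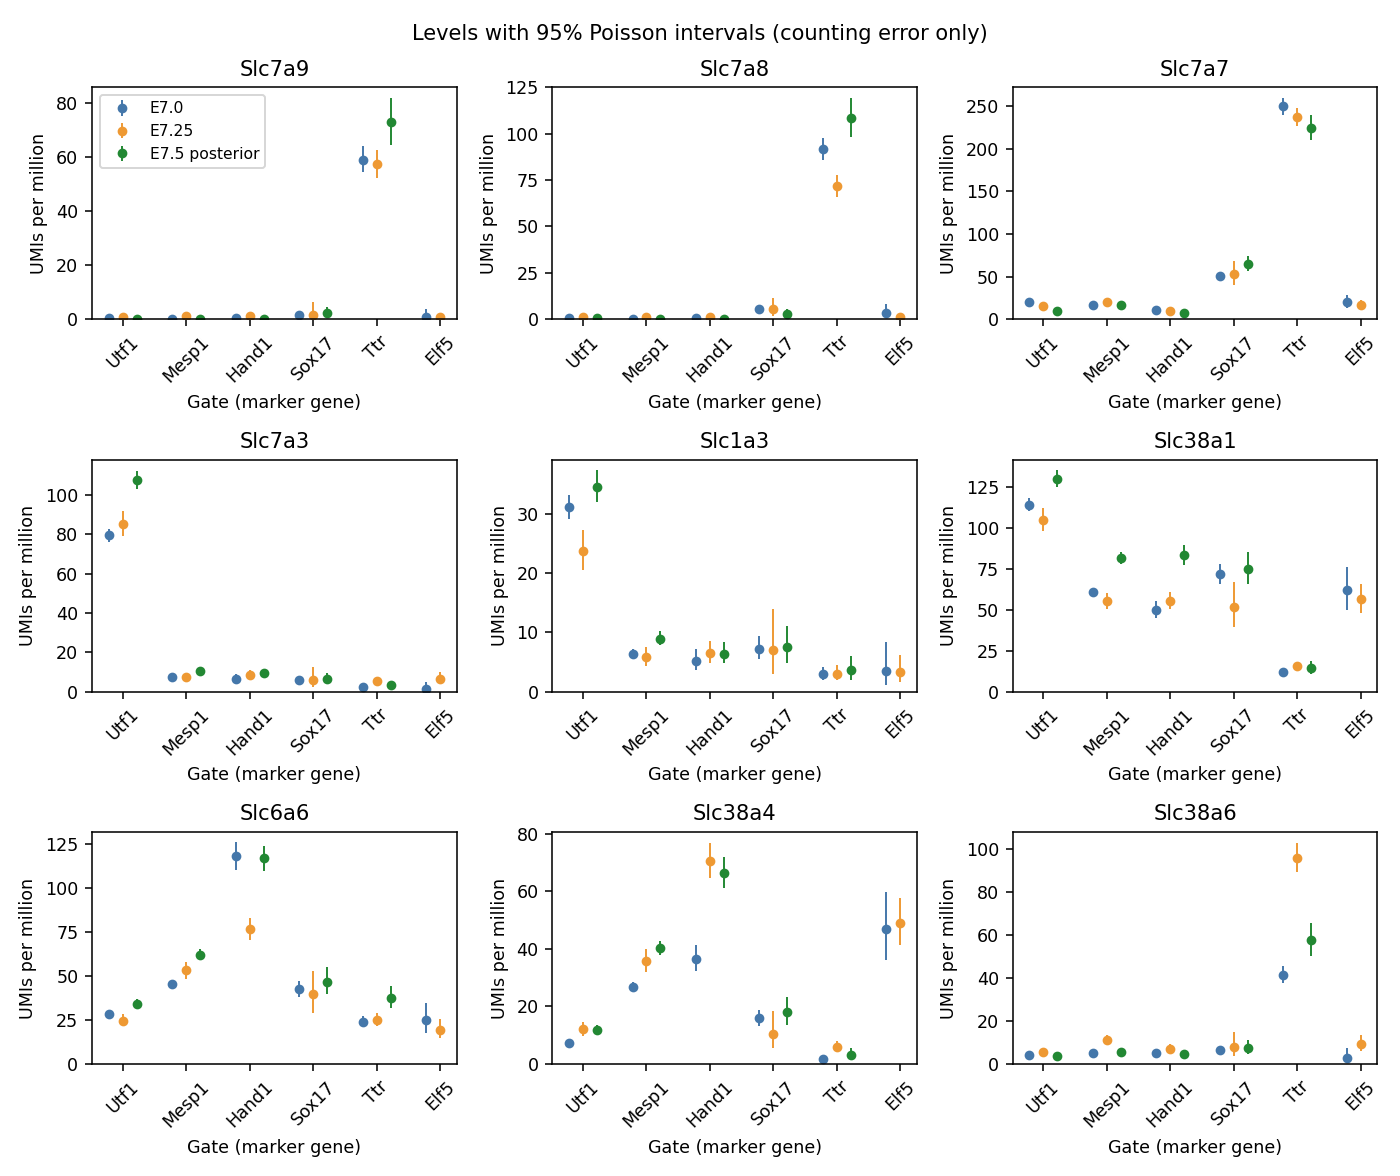
Levels of 9 transporters (CPM, linear axes from 0) by gate (x axis) and library (colour), with bars for 95% Poisson intervals of counting error. Slc7a9, Slc7a8, Slc7a7 and Slc38a6 peak in the Ttr gate, Slc7a3, Slc1a3 and Slc38a1 in the Utf1 gate, and Slc6a6 in the Hand1 gate.

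The mixture of light chains that pair with Slc3a2 differed between the gates. UMIs count 1 end per RNA molecule and were not divided by gene length. Slc7a7 supplied 65.7%, 66.4% and 56.7% of the UMIs of these light chains in the Ttr gate and 58.2%, 58.3% and 62.2% in the Sox17 gate, against 14.8% to 34.8% in the other gates. Slc7a8 supplied 24.1%, 20.03% and 27.3% in the Ttr gate. Within the Hand1 gate Slc7a6 had the largest share, 43.2%, 46.3% and 46.8%, and within the Elf5 gate Slc7a5, with 60.4% and 41.1%. Neither was particular to its gate. Slc7a6 also had the largest share in the Mesp1 gate, 35.5%, 40.8% and 39.0%. In the Utf1 gate the largest was Slc7a5 at E7.0 (38.8%) and E7.5 posterior (49.2%) and Slc7a6 at E7.25 (34.5%). Per UMI of Slc3a2 there were 1.54, 1.47 and 1.58 light-chain UMIs in the Ttr gate, 0.852, 0.912 and 1.07 in the Sox17 gate and 0.533 to 0.782 elsewhere. Slc7a11, the cystine-glutamate exchanger, gave at most 1.87% and stood at no more than 1.02 CPM.

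**Figure D3:**
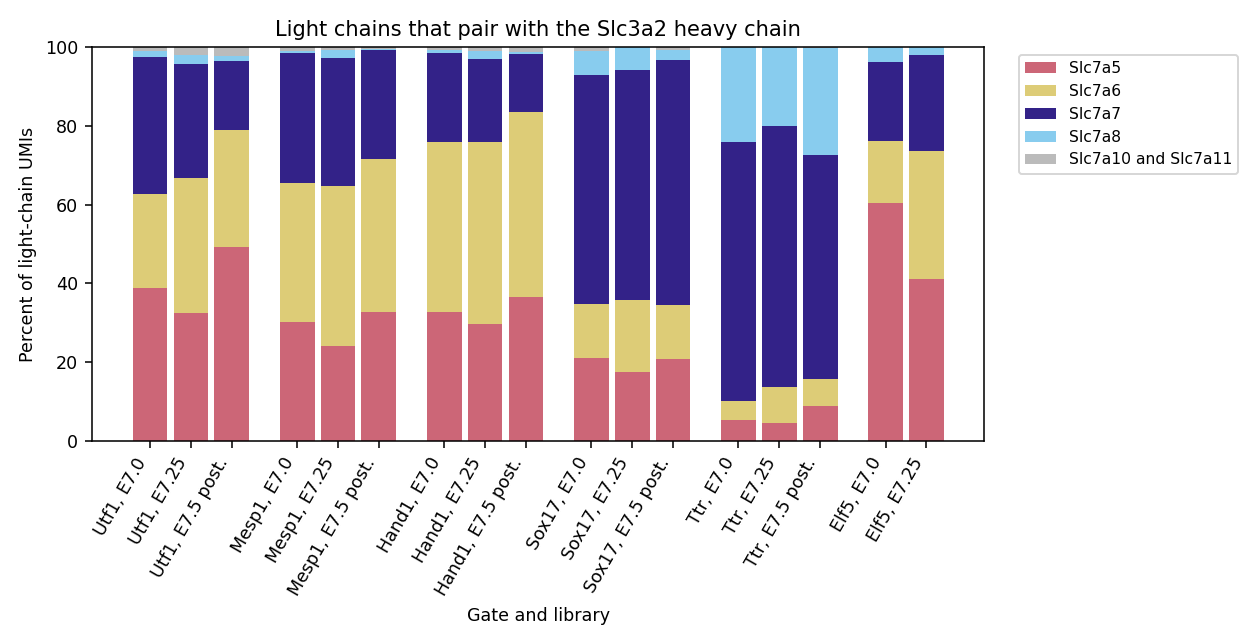
Percent of the UMIs of the light chains that pair with Slc3a2 (stacked bars, y axis) in each gate and library (x axis). Slc7a7 fills over 50% of the bar in the Ttr and Sox17 gates, and Slc7a5 is widest in the Elf5 gate at E7.0.

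Among the cationic carriers, Slc7a3 marked the Utf1 gate. It stood there at 79.4 CPM (95% interval 76.2 to 82.7) at E7.0, 85.2 CPM (95% interval 79.1 to 91.7) at E7.25 and 107 CPM (95% interval 103 to 112) at E7.5 posterior. In the Mesp1 gate it was at 7.66, 7.64 and 10.7 CPM, in the Hand1 gate at 6.62, 8.70 and 9.50 CPM and in the Sox17 gate at 6.14, 6.15 and 6.22 CPM. In the Ttr gate it was at 2.13, 5.56 and 3.31 CPM and in the Elf5 gate at 1.42 and 6.41 CPM. The ratio of the Utf1 to the Mesp1 gate was 10.4 (95% interval 9.21 to 11.7) at E7.0, 11.1 (95% interval 8.70 to 14.5) at E7.25 and 10.0 (95% interval 8.80 to 11.4) at E7.5 posterior, and the ranges of the Utf1 gate and the other gates did not overlap. Extraembryonic ectoderm also carried Utf1 RNA, at 510 and 319 CPM, against 471 and 413 CPM in the Utf1 gate itself. In thinned cells 32.9%, 33.4% and 39.0% of the Utf1 gate held a UMI, against 0% to 4.30% elsewhere (unthinned, 56.8%, 47.8% and 62.7% in the Utf1 gate). The other cationic carriers, Slc7a1, Slc7a2, Slc7a4 and Slc7a14, reached at most 4.94 CPM, for Slc7a1.

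Slc1a3, a sodium-coupled carrier of glutamate and aspartate, followed the same gate at a lower level. It stood at 31.0, 23.7 and 34.5 CPM in the Utf1 gate and ranged from 2.91 to 8.93 CPM in the other gates. The Utf1 gate exceeded the mean of the others 6.12, 4.63 and 5.23-fold. Against the next gate the ratio was 4.28 (95% interval 3.29 to 5.67) and 3.37 (95% interval 1.68 to 7.91) over the Sox17 gate at E7.0 and E7.25, and 3.86 (95% interval 3.31 to 4.52) over the Mesp1 gate at E7.5 posterior. The remaining glutamate carriers stayed below, the highest being Slc1a6 at 5.80 CPM. Slc1a5, the sodium-coupled exchanger that imports glutamine, was shared more evenly, with 28.7, 42.2 and 29.4 CPM in the Utf1 gate, 28.5 and 46.6 CPM in the Elf5 gate and 11.1, 15.6 and 9.42 CPM in the Ttr gate. The Mesp1, Hand1 and Sox17 gates held 18.3 to 34.3 CPM. The ratio of the Utf1 to the Ttr gate was 2.57 (95% interval 2.12 to 3.16) at E7.0, 2.71 (95% interval 2.21 to 3.35) at E7.25 and 3.12 (95% interval 2.24 to 4.49) at E7.5 posterior. The Utf1 and Elf5 gates differed by less than counting error, with a ratio of 1.008 (95% interval 0.734 to 1.42) at E7.0 and 0.906 (95% interval 0.743 to 1.11) at E7.25. Slc1a4, its relative, reached 10.2 CPM.

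The Slc38a family split into carriers that were low in the Ttr gate and carriers that were high there. Slc38a1, which loads cells with glutamine, stood at 114, 105 and 130.04 CPM in the Utf1 gate, 49.8 to 83.4 CPM in the Mesp1, Hand1, Sox17 and Elf5 gates and 12.1, 15.4 and 14.3 CPM in the Ttr gate. The ratio of the Utf1 to the Ttr gate was 9.41 (95% interval 7.87 to 11.3) at E7.0, 6.80 (95% interval 5.64 to 8.27) at E7.25 and 9.12 (95% interval 6.996 to 12.1) at E7.5 posterior. Its 2-fold lead over the mean of the other gates was narrow, at 2.23, 2.24 and 2.05, and was lost with at most 5% mitochondrial UMIs and with gates at 1 UMI, where the lowest log2 fold was 0.94 and 0.92. Slc38a2, a carrier whose amount is known to rise when amino acids are short, ranged from 118 to 173 CPM in the Utf1, Mesp1, Hand1 and Sox17 gates. It was lower in the Ttr gate, at 50.6, 67.3 and 67.0 CPM, and the Utf1 gate exceeded the Ttr gate 2.85, 2.49 and 2.50-fold. Thinned cells gave the same order, with a UMI of Slc38a2 in 23.5%, 24.2% and 29.0% of the Ttr gate (unthinned, 40.0%, 36.1% and 37.4%) and 42.7% to 58.2% elsewhere.

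Slc38a4, an imprinted placental carrier of neutral and cationic amino acids, followed the mesoderm and extraembryonic ectoderm. It stood at 36.6, 70.6 and 66.5 CPM in the Hand1 gate, 26.8, 35.9 and 40.2 CPM in the Mesp1 gate and 47.0 and 48.9 CPM in the Elf5 gate. The Sox17 gate held 15.8, 10.5 and 18.0 CPM, the Utf1 gate 7.21, 12.1 and 11.8 CPM and the Ttr gate 1.84, 5.93 and 3.31 CPM. The ratio of the Hand1 to the Utf1 gate was 5.08 (95% interval 4.22 to 6.12) at E7.0, 5.81 (95% interval 4.70 to 7.247) at E7.25 and 5.62 (95% interval 4.81 to 6.59) at E7.5 posterior, and the Mesp1 gate exceeded the Utf1 gate 3.71, 2.96 and 3.40-fold. At E7.0 the Hand1 gate was 0.780 (95% interval 0.593 to 1.04) times the Elf5 gate and at E7.25 1.44 (95% interval 1.20 to 1.74) times, so these gates differed beyond counting error at E7.25 and not at E7.0. No gate led Slc38a4 in each library.

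Slc38a6, Slc38a7, Slc38a9 and Slc38a10 were highest in the Ttr gate. Slc38a9, a lysosomal carrier that reports arginine to the growth regulator mTORC1, stood at 58.1, 65.0 and 66.0 CPM there and at 5.69 to 19.3 CPM in the other gates, and the ratio of the Ttr to the Sox17 gate was 4.69 (95% interval 3.79 to 5.85) at E7.0, 3.36 (95% interval 2.20 to 5.41) at E7.25 and 4.51 (95% interval 3.30 to 6.30) at E7.5 posterior. Slc38a7, a lysosomal exporter of glutamine, stood at 41.3, 54.5 and 51.2 CPM against 6.66 to 12.3 CPM elsewhere, 4.58, 5.20 and 5.69 times the mean of the other gates. Slc38a6 stood at 41.4, 96.0 and 57.6 CPM against 2.85 to 11.2 CPM elsewhere, 8.90, 11.6 and 10.7 times that mean. Slc38a10 stood at 38.8, 53.5 and 35.7 CPM against 15.7 to 29.9 CPM elsewhere, 2.02, 1.90 and 1.68 times the mean, so it was not called. With at most 5% mitochondrial UMIs, which left 558, 405 and 112 cells in the Ttr gate, the same 7 members were called, with the lowest log2 fold of Slc38a7 at 1.61 in place of 2.20, of Slc38a6 at 2.56 in place of 3.15 and of Slc38a9 at 1.31 in place of 2.36. The part of mitochondrial content in these levels was not tested further. Slc38a9 overlaps Gm47827 and Slc38a10 overlaps Gm11769 on the opposite strand.

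Slc6a6, the taurine transporter, was the sole Slc6a gene above 20 CPM and was highest in the Hand1 gate at 118, 76.5 and 117 CPM. The Mesp1 gate was second at 45.6, 53.1 and 61.9 CPM, followed by the Sox17 gate at 42.6, 39.6 and 46.7 CPM. The Utf1 gate held 28.6, 24.6 and 34.3 CPM, the Ttr gate 24.0, 25.1 and 37.7 CPM and the Elf5 gate 24.9 and 19.6 CPM. The ratio of the Hand1 to the Mesp1 gate was 2.58 (95% interval 2.38 to 2.80) at E7.0, 1.44 (95% interval 1.27 to 1.63) at E7.25 and 1.88 (95% interval 1.74 to 2.04) at E7.5 posterior. Without cells that met more than 1 gate, which left 50, 360 and 274 Hand1 cells, the lowest log2 fold over the mean of the other gates was 1.39, against 1.24 with them. That setting left 2 and 21 cells in the Elf5 gate at E7.0 and E7.25, too few to be described. The 2 folds are thus over different sets of other gates. The next Slc6a members were Slc6a8 at 18.6 CPM and Slc6a13 at 7.91 CPM, and the highest Slc36a member was Slc36a1 at 12.1 CPM.

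The transporters that differed between the Utf1, Mesp1 and Hand1 gates were also read in subsets between them, a view added after the data were examined. Cells of the Utf1 gate were split by T, the primitive streak gene, and cells of the Mesp1 gate by Utf1. At E7.0 Slc7a3 stood at 88.8 CPM in Utf1 cells without T, 19.0 in those with 2 or more T UMIs, 33.0 in Mesp1 cells with 2 or more Utf1 UMIs, 3.33 in Mesp1 cells without Utf1 and 2.22 in Hand1 cells without Utf1. At E7.5 posterior the same subsets held 114, 52.9, 56.1, 5.43 and 3.35 CPM of Slc7a3. Slc7a3 was thus lower in Utf1 cells with T than in those without in both libraries, with intervals that did not overlap.

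Slc1a3 took the values 32.9, 11.3, 18.6, 3.89 and 3.88 CPM over these subsets at E7.0 and 35.4, 27.4, 26.7, 6.74 and 4.15 CPM at E7.5 posterior. In the later library the intervals of Slc1a3 in Utf1 cells without and with T overlapped. At E7.0 Slc6a6 took the values 29.4, 20.5, 30.6, 50.1 and 131 CPM, and Slc38a4 7.05, 8.21, 12.8, 30.7 and 38.8 CPM. At E7.5 posterior Slc6a6 took the values 33.3, 35.7, 40.1, 64.6 and 124 CPM, and Slc38a4 11.2, 15.5, 18.2, 43.0 and 71.2 CPM. In both libraries Slc6a6 and Slc38a4 were thus lower in these 3 Utf1-positive subsets than in mesoderm cells without Utf1. The subsets with both markers were small, 99 and 95 Utf1 cells with T and 188 and 106 Mesp1 cells with Utf1 at E7.0 and E7.5 posterior, and the latter had a median of 26319.5 and 16715.5 UMIs, against 11312.5 and 9314 in Mesp1 cells without Utf1. Without predicted doublets 156 and 36 of the Mesp1 cells with Utf1 remained. In them Slc7a3 stood at 30.4 and 71.8 CPM and Slc6a6 at 28.5 and 21.02 CPM. Of the Utf1 cells with T, 95 and 63 remained, with Slc7a3 at 19.9 and 44.7 CPM. Doublets were marked by score rank at E7.5 posterior, unlike at E7.0, so the 2 drops follow different rules. At E7.25 the subsets of 29 and 46 cells were not described.

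**Figure D4:**
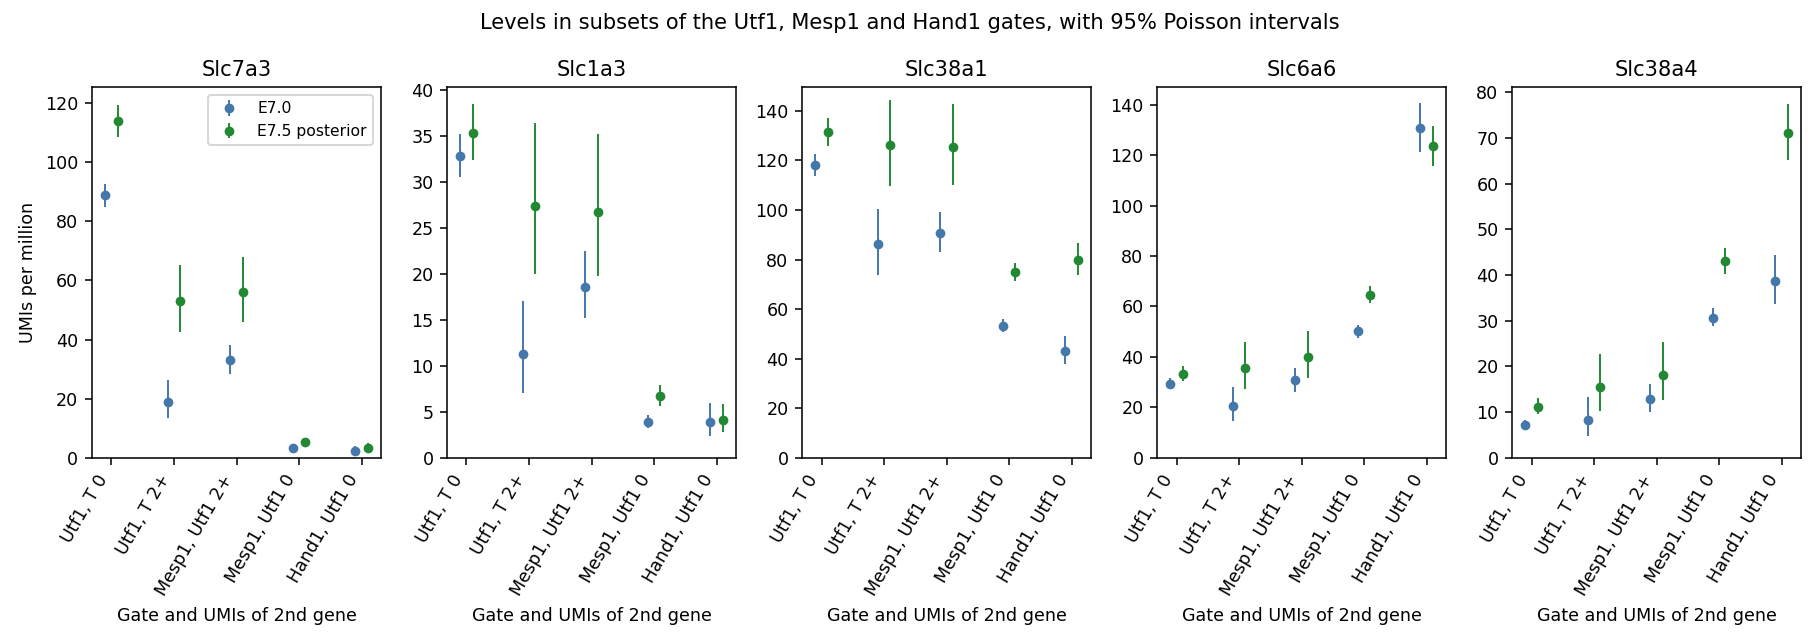
Levels of 5 transporters (CPM, with 95% Poisson intervals of counting error) in subsets of the Utf1, Mesp1 and Hand1 gates (x axis, with the UMIs of the second gene) at E7.0 and E7.5 posterior. Slc7a3 and Slc1a3 are lowest and Slc6a6 and Slc38a4 highest in the mesoderm subsets without Utf1.

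Between the whole libraries few members moved by 2-fold. From E7.0 to E7.25, 12 members had 20 CPM or more in at least 1 library, of which 1 was higher and 0 were lower, against 2.78% and 1.52% of all genes. The higher one was Slc38a6, at 8.39 and 23.2 CPM, a log2 ratio of 1.47 (95% interval 1.34 to 1.60). This whole-library call was lost with at most 5% mitochondrial UMIs. From E7.25 to E7.5 posterior, 0 of 13 were higher and 2 were lower, against 1.01% and 3.29% of all genes. They were Slc38a6, at 7.23 CPM in E7.5 posterior and a log2 ratio of -1.68 (95% interval -1.83 to -1.54), and Slc7a7, at 56.3 and 26.6 CPM and a log2 ratio of -1.08 (95% interval -1.16 to -1.003). Between E7.0 and E7.5 posterior, 0 of 10 were higher and 0 lower, against 0.568% and 1% of all genes. With 10 to 13 members measured, 1 gene is already a larger share than these backgrounds, so the counts say no more than the genes named. The E7.0 and E7.25 libraries each enter more than 1 comparison.

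Both Slc38a6 and Slc7a7 were led by the Ttr gate, whose share of kept cells was 10.4%, 17.8% and 5.29%, and the part of that share in the whole-library ratios was not tested. Within the Ttr gate of these libraries Slc7a7 was at 237 and 225 CPM, a log2 ratio of -0.08 (95% interval -0.20 to 0.04). Slc38a6 also differed within it, at 41.4 CPM (95% interval 37.5 to 45.5) at E7.0, 96.0 CPM (95% interval 89.3 to 103) at E7.25 and 57.6 CPM (95% interval 50.3 to 65.6) at E7.5 posterior. With TMM and DESeq2 scaling the whole-library ratio of Slc7a7 from E7.25 to E7.5 posterior was -0.96 and -0.97, short of 2-fold. These scalings shifted whole-library ratios by -0.20 and -0.23 on the log2 scale for E7.25 against E7.0, and by less for the other comparisons. Within gates the factors were computed from each gate's own sums, and the within-gate call of Slc38a6 stayed with both. The median log2 ratio of the members tested was 0.44, -0.25 and 0.24 for the 3 comparisons in the order above, and of all genes tested 0.12, -0.09 and 0.01.

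Within gates, 55, 47 and 44 pairs of member and gate had enough RNA in the 3 comparisons. From E7.0 to E7.25, 1 pair was higher and 1 lower, against 2.55% and 1.88% of all pairs of gene and gate. Slc38a6 was higher in the Ttr gate, with a log2 ratio of 1.21 (95% interval 1.04 to 1.39), and Slc7a5 lower in the Elf5 gate, with -1.04 (95% interval -1.49 to -0.59). From E7.25 to E7.5 posterior, 1 was higher and 0 lower, against 1.37% and 1.17%. This was Slc7a5 in the Ttr gate, at 16.6 and 35.4 CPM, a log2 ratio of 1.10 (95% interval 0.74 to 1.45). Between E7.0 and E7.5 posterior, 0 were higher and 1 lower, against 1.23% and 0.929%. This was Slc7a7 in the Utf1 gate, at 20.1 and 9.67 CPM, a log2 ratio of -1.06 (95% interval -1.31 to -0.81). Just short of the limit lay Slc38a4 in the Hand1 gate, with a log2 ratio of 0.95 (95% interval 0.73 to 1.17) from E7.0 to E7.25. The lower calls of Slc7a5 in the Elf5 gate and of Slc7a7 in the Utf1 gate were lost when predicted doublets were left out, and the higher call of Slc7a5 in the Ttr gate with at most 5% mitochondrial UMIs.

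**Figure D5:**
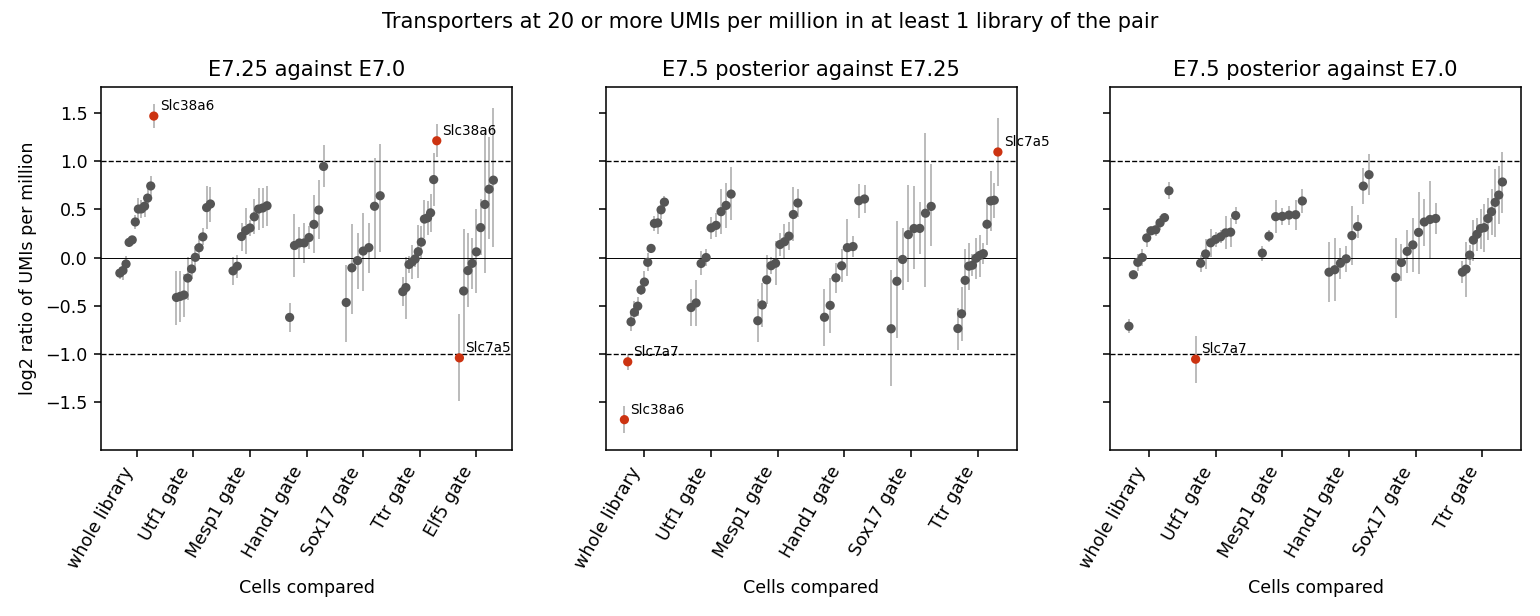
Log2 ratio between libraries (y axis) of each transporter with 20 or more CPM in at least 1 library of the pair, over whole libraries and within gates (x axis), with 95% conditional binomial intervals of counting error. Dashed lines mark 2-fold, points past it are named, and within the Ttr gate Slc38a6 is the point above the line at E7.25 against E7.0.

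Other genes of amino acid handling were read in lists. Of 10 further amino acid carriers measured, the Ttr gate led 4, against the 9.71% of all genes given above. They were Slc43a2, an exporter of large neutral amino acids, at 55.7, 99.9 and 55.5 CPM, the lysosomal carrier of cationic amino acids Pqlc2 at 71.1, 135 and 83.3 CPM, the aromatic amino acid carrier Slc16a10 at 27.8, 32.7 and 35.9 CPM and the mitochondrial ornithine carrier Slc25a15 at 34.3, 43.6 and 46.9 CPM. In the Utf1, Mesp1 and Hand1 gates these were at 2.43 to 6.72 CPM, 4.86 to 14.8 CPM, 1.69 to 3.51 CPM and 6.12 to 8.57 CPM. Among the gates, Slc43a2, Pqlc2 and Slc16a10 reached 20 CPM only in Ttr, so they entered the 10 through the gate that led them. The share of 4 of 10 therefore describes the list and is not a test. In whole libraries Slc43a2 and Pqlc2 were higher at E7.25 than at E7.0 and lower at E7.5 posterior than at E7.25, as was Slc38a6. These were 2 of the 5 measured in each comparison, against 2.78% of all genes higher and 3.29% lower. Both were led by the Ttr gate, whose share of kept cells was 10.4%, 17.8% and 5.29%. The part of that share in these ratios was not tested.

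Of 15 amino acid response genes, which the factor ATF4 switches on when amino acids are short, the Ttr gate led 3, against 9.71% of all genes. These were the serine enzymes Phgdh, at 269, 483 and 373 CPM, and Psph, at 184, 161 and 244 CPM, and the proline enzyme Aldh18a1, at 58.8, 52.7 and 67.0 CPM. The list did not move as 1, since Asns, the asparagine synthetase, was lowest in the Ttr gate of each library at 40.0, 42.6 and 46.4 CPM, as was the mitochondrial folate enzyme Mthfd2 at 14.9, 29.3 and 21.7 CPM. The Utf1 gate led Pck2, against 1.06% of all genes, at 20.6, 36.5 and 28.5 CPM. Among the gates Aldh18a1 reached 20 CPM only in Ttr, so it entered the 15 through the gate that led it. Atf4 itself ranged from 84.2 to 147 CPM over the gates. Between whole libraries 12 of these genes were measured in each comparison. Phgdh was higher and Cth lower at E7.25 than at E7.0, against 2.78% and 1.52% of all genes. The E7.5 posterior library held more Ddit4 and Cth than E7.25 and more Ddit4 than E7.0, against 1.01% and 0.568% of all genes higher. Of 23 genes that sense amino acids for mTORC1, the Ttr gate led 2, a share below the 9.71% of all genes. They were Rragc, at 55.4, 67.7 and 79.0 CPM, and Castor2, at 31.3, 57.9 and 37.4 CPM. The Utf1 gate led Rragd, at 84.9, 112 and 73.0 CPM, and the Elf5 gate, which led 3.81% of all genes, the arginine sensor Castor1, at 49.8 and 51.6 CPM at E7.0 and E7.25. Castor1 reached 20 CPM in no gate but Elf5, so it entered the 23 through that gate. Rragc and Rragd encode alternative subunits of the same lysosomal GTPase, and Rragd stood at 9.21, 15.1 and 7.39 CPM in the Ttr gate. Of 19 cytosolic aminoacyl-tRNA synthetases, 0 were led by a gate, against 0.764% to 9.71% of all genes per gate. Between whole libraries 0 differed 2-fold, against 0.568% to 3.29% of all genes higher or lower. With 19 genes, the 0 between libraries lies near that background.

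Several of the named genes are neighbours. In GENCODE M21 on GRCm38, Slc7a7 (chr14:54369442-54417780, minus strand) and Slc7a8 (chr14:54722209-54781946, minus strand) lie 304 kb apart, and both were led by the Ttr gate. Slc38a1 (chr15:96571418-96642913), Slc38a2 (chr15:96687392-96699730) and Slc38a4 (chr15:96994820-97055956), all on the minus strand, lie in a row with gaps of 44.5 kb and 295 kb. Of these only Slc38a1 was led by a gate, Utf1. Slc7a9 lies at chr7:35448796-35466036 on the plus strand, Slc7a3 at chrX:101079210-101086020 on the minus strand and Slc6a6 at chr6:91684053-91759066 on the plus strand. The genome build of the counts is not given in the sources used here, and all 58 identifiers were found in this annotation.

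RefSeq windows of the 250 bases before a start on GRCm38.p6 were found for 12 of the 17 named genes and 41 of the 58. Where a gene has several windows, the first in the table was used. Slc7a7 has 5, Slc38a4 3, and Slc7a6 and Slc7a9 2 each, and the others were not searched. The windows shown, chosen to set genes of different gates side by side, are those of 2 genes led by the Ttr gate, 1 led by the Utf1 gate and 1 read in all gates, written 5′ to 3′ on the gene's strand with each CG in capitals.
Slc7a9 (chr7:35448842-35449091, plus strand): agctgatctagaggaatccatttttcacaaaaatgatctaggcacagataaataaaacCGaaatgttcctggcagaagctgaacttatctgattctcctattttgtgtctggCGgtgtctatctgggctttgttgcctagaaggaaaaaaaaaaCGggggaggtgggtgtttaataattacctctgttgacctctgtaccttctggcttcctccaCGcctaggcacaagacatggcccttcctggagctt
Slc7a7 (chr14:54417945-54418194, minus strand): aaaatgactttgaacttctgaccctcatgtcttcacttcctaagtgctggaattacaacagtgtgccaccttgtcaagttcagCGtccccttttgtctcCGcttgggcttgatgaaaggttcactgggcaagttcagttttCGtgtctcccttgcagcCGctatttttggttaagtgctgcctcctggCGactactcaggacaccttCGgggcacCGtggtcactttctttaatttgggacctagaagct
Slc1a3 (chr15:8710808-8711057, minus strand): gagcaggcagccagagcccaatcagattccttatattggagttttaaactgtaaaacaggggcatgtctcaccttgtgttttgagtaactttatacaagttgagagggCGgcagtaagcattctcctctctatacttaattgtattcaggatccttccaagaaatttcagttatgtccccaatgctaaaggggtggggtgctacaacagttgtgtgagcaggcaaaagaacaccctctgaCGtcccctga
Slc38a2 (chr15:96699729-96699978, minus strand): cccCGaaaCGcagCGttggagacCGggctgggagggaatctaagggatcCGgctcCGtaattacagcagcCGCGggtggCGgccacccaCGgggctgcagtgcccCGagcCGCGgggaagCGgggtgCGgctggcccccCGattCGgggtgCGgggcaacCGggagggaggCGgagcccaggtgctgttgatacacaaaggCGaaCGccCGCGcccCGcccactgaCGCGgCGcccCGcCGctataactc

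The window of Slc38a2 holds 30 CG pairs and that of Slc7a6 30, against a median of 6 over 27025 mouse promoters of this length. Slc7a9 holds 4, Slc7a7 7 and Slc1a3 2. The other genes led by the Ttr gate hold 14 (Slc7a8), 21 (Slc38a6), 9 (Slc38a7), 15 (Slc38a9) and 11 (Slc3a2). The window of Slc3a2 (chr19:8713898-8714147, minus strand) lies inside the gene as annotated in GENCODE M21 (chr19:8706882-8723369), not before its 5′ end there. A motif of the amino acid response, TGATGNAA on either strand, was found in the window used for Slc7a7, starting 141 bases before the start, and in 0 of the other 11 named windows, against 3.53% of all promoters. The motifs CAAAGTCCA, CAAAGTTCA and CAAAGGTCA of the endoderm factor HNF4 occurred in 0 of the 12, against 1.13% of all promoters for any of the 3. A match describes letters, and its absence from these windows says nothing about binding elsewhere.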

How the data were processed

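Droplet 3′ RNA counts of 3 libraries, 1 per stage, were read as deposited. They are raw UMI counts per gene and cell that the authors made with Cell Ranger 6.0.1, per the file headers. The genome build is not given in the sources used here. Of 32285 feature identifiers 32158 were found in GENCODE M21, 127 were not, and all 58 members were. The deposited columns of no sample number 0.

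Cells with under 1000 detected genes or over 10% mitochondrial UMIs were left out, which kept 7941, 5194 and 8438 of 10232, 6173 and 11468 barcodes and 108350108, 47672673 and 87940979 UMIs. Counts were summed over the cells of a gate and divided by the summed total (CPM). As each group is a single library, no test could be run. The labels name no separate embryos, and intervals cover counting error alone. Members are named with values at 20 CPM or more in a library or gate, a change is called at 2-fold, and fewer than 50 cells are not described. Doublets were kept. As an alternative Scrublet (scanpy 1.11.5) marked 111 and 193 cells at E7.0 and E7.25 and 0 at E7.5 posterior, where 570 were marked by score rank. TMM factors of edgeR 4.0.16 and size factors of DESeq2 1.42.0 (R 4.3.3) served as scaling alternatives. Python 3.11.15, numpy 2.4.6 and scipy 1.17.1 were used, and the scripts were tested on simulated data. The members and gene lists were chosen with earlier results of these data known. The subsets by T and Utf1 and the subtraction of the yardstick share were chosen after the data were examined.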

Additional observations from a re-analysis of the deposited data

How the results depend on the processing

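No paired analysis was possible because each group is 1 library and the labels give no replicate numbers, so no replicate could be left out either. Over all settings 0 results reversed. Of counts of members led or changed, 206 values stayed within 1.5 times and 52 moved, and of single values 163 stayed and 24 moved. The Ttr gate led 5 to 9 members and the Utf1 gate 2 to 4 over the settings run. With at most 5% mitochondrial UMIs, whole-library calls became 0 higher for E7.25 against E7.0, 1 lower for E7.5 posterior against E7.25 and 1 lower for E7.5 posterior against E7.0, and calls within gates 0 higher and 3 lower, and 2 lower, for the latter comparisons. Without predicted doublets the Elf5 gate led 1, and calls within gates were 0 lower for E7.25 and for E7.5 posterior against E7.0. Without cells over the 99th percentile of UMIs the Elf5 gate led 1, and calls within gates for E7.25 against E7.0 were 2 higher and 0 lower. At a minimum of 10 CPM these were 4 higher, and E7.5 posterior against E7.25 gave 4 lower in whole libraries and 1 lower within gates. At 50 CPM whole libraries gave 0 higher for E7.25 against E7.0 and 1 lower for E7.5 posterior against E7.25, and gates 0 higher for the latter and 0 lower for E7.5 posterior against E7.0.

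With no minimum the Sox17 gate led 1, whole libraries gave 10 higher and 1 lower, 6 and 7, and 10 and 1 over the 3 comparisons, and gates 27 higher and 14 lower, 16 and 14, and 23 and 12. With gates at 1 UMI the Hand1 gate led 2, and calls within gates were 0 lower for E7.25 and for E7.5 posterior against E7.0, the latter also 0 at 3 UMIs. With gates at 2 UMIs per 10000 the Elf5 gate led 2, and calls within gates were 3 higher and 0 lower, then 1 lower, then 0 lower. Without cells that met more than 1 gate the Hand1 gate led 2, and calls within gates for E7.25 against E7.0 were 2 higher and 0 lower. That setting left the Elf5 gate under 50 cells in each library, so it did not enter these counts. With the mean of the cells' own CPM the Elf5 gate led 1, and calls within gates were 2 higher and 0 lower, then 1 lower, then 0 lower. TMM factors and DESeq2 size factors each left 1 lower for E7.5 posterior against E7.25 in whole libraries. Against the highest other gate, a rule added after the data were examined, the Hand1 gate led 0. The cause of these moves was not tested. Counts of 0 to 4 members move past 1.5 times with 1 or 2 genes.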
